A study of Mus musculus with 17 samples.

Results

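The MICAL family and the serum response factor circuit were described in mouse cortex after chronic unpredictable stress (CUS). The set held 8 genes: Mical1, Mical2 and Mical3, the MICAL-like genes Micall1 and Micall2, the transcription factor gene Srf, and its cofactor genes Mkl1 and Mkl2. They were taken by gene symbol from 36293 genes in the bulk files and 37608 gene rows in the single-nucleus files. All 8 were present in both. The list was drawn up because Mical2 had already been seen to be higher in CUS nuclei, so the members were chosen by values of the single-nucleus mice, and the single-nucleus levels of Mical2 are a description without a test. The bulk values come from other mice, but members and gene lists were chosen with earlier results of these data known.

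Male C57BL/6 mice of 9 to 10 weeks received 3 varying stressors a day for 12 days. Control mice were handled daily and lived in another room. Nuclear RNA of the medial prefrontal cortex (mPFC) was sequenced in bulk in 4 control and 5 CUS mice, which are given as postnatal day 90. Single neocortical nuclei were profiled by sNucDrop-seq, a droplet method that counts unique molecular identifiers (UMIs), in 4 control and 4 CUS mice given as postnatal day 80. The labels place tissue collection 24 h after the last stressor, whereas the study places the bulk collection after behavioural testing, so the bulk mice had also been tested. Room and stress cannot be told apart in either assay.

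MICAL proteins are flavin monooxygenases that oxidise methionines of filamentous actin and thereby take filaments apart, and methionine sulfoxide reductases undo the reaction. MICAL1 was known first as a partner of plexins, the receptors of semaphorins. MICAL2 acts in the nucleus, where loss of polymerisable actin frees the myocardin-related transcription factors, encoded by Mkl1 and Mkl2, to join SRF on CArG boxes of actin and cytoskeletal genes. MICAL3 and the MICAL-like proteins, which lack the monooxygenase, bind Rab GTPases and serve vesicle transport. In neurons SRF also drives immediate early genes together with ternary complex factors such as ELK1.

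Because SRF binds CArG boxes, these were searched in the promoter windows of RefSeq (build GRCm38.p6), which run from 250 bases before to 50 bases after a transcript start. The 8 members had 12 windows, and only that of Srf held the motif, in 2 copies whose first bases lie 82 and 62 bases before the start. Of all 32851 windows, 1.63% held it. The windows of Srf, of Mical2 and of its neighbour Micalcl are shown, the first because it is the member with the boxes and the others because both genes rose in bulk. They lie at chr17:46556113-46556412 on the minus strand for Srf, at chr7:112225586-112225885 for Mical2, and at chr7:112368058-112368357 and chr7:112374607-112374906 for the Micalcl windows, these 3 on the plus strand. Capitals mark CArG boxes, and the windows of Mical2 and Micalcl have none.
Srf: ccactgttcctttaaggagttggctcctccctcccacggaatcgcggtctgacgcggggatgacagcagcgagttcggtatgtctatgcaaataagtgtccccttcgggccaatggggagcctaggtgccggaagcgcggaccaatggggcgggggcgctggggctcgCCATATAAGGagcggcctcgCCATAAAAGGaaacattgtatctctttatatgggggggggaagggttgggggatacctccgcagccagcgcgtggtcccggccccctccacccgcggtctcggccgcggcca
Mical2: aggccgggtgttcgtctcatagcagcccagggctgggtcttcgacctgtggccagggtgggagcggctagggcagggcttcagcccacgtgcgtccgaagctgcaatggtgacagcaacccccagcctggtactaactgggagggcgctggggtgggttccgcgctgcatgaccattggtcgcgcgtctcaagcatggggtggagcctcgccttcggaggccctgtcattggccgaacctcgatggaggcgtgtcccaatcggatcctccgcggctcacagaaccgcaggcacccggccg
Micalcl, first start: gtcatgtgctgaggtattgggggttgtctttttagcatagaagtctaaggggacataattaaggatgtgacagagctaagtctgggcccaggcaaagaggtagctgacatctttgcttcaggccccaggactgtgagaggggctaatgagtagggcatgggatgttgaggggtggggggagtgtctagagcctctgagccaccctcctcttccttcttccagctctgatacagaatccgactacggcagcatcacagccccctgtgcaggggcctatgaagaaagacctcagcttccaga
Micalcl, second start: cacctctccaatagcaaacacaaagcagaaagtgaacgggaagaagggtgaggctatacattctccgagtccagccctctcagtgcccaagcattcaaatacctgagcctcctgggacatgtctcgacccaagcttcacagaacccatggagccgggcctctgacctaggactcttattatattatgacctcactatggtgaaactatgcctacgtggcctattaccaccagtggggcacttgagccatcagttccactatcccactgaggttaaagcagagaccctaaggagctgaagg
No match says only that these letters are absent from the window.

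The bulk libraries held 26188825 to 30525015 reads on genes. After filtering, 26698 nuclei remained, 1935 to 4235 per mouse, with a median of 2010 UMIs and 1274 genes per nucleus. Of the barcodes, 20 occurred in more than 1 library, and no pair of libraries shared over 2. Values are CPM, counts brought to a common library size with trimmed mean of M values (TMM) factors, and errors are SD unless stated. The single-nucleus mice were processed in 2 batches, each with 2 control and 2 CUS mice. The study saw a profound batch effect and put batch in its model. The labels do not give the batch of a mouse, so batch was not in any model here and its part was not tested.

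In bulk mPFC nuclei, Mical2 rose with CUS, and none of the other 7 members passed the test. Mical2 (ENSMUSG00000038244, chr7:112225856-112355194 of mm10, plus strand) was at 371, 436, 610 and 410 CPM in the control mice and at 774, 545, 670, 666 and 646 CPM in the CUS mice. Each CUS mouse lay above the control mean, but control replicate 3 lay above CUS replicate 2. The means were 457 ± 106 CPM (n = 4) and 660 ± 81.7 CPM (n = 5), a log2 fold change of 0.53 (SE 0.13, FDR 0.0476, edgeR quasi-likelihood test, Benjamini-Hochberg adjusted over 18394 genes). In this comparison 3.29% of genes were called, 1.16% higher and 2.13% lower, so 1 call among 8 members is a small count. The call rests on few mice: FDR was 0.0803 without control replicate 1, 0.130 without control replicate 2, 0.0832 without control replicate 4, and 0.0932, 0.0855, 0.112 and 0.105 without CUS replicates 1, 3, 4 and 5. With the replicate number as a block, a fit that also leaves out CUS replicate 5, it was 0.0725. The call held with the likelihood ratio test (FDR 0.0049), DESeq2 (FDR 0.00368), no TMM factors (FDR 0.0341, edgeR) and no filter (FDR 0.0174, edgeR). It also held without CUS replicate 2 (FDR 0.0386, edgeR) and without control replicate 3 (FDR 0.00198, edgeR). Mical2 was called in 7 of 15 settings, the reported fit among them.

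The other monooxygenase genes did not pass the test. Mical3 (ENSMUSG00000051586, chr6:120931707-121130999) was at 268, 280, 346 and 254 CPM in control mice and between 308 and 344 CPM in CUS mice. Each CUS mouse exceeded the control mean, yet the groups overlapped because of control replicate 3, which was also the control mouse with the most Mical2. The log2 fold change of Mical3 was 0.16 (SE 0.08, FDR 0.279, edgeR). Without control replicate 3 it was 0.26 with FDR 0.0178. Mical1 (ENSMUSG00000019823, chr10:41476314-41487032) was rare in these nuclei, with 83 to 154 reads per mouse. Its means were 4.92 ± 0.255 CPM (n = 4) in control and 4.18 ± 0.637 CPM (n = 5) in CUS mice, a log2 fold change of -0.23 (SE 0.12, FDR 0.302, edgeR), and all 5 CUS mice lay below the control mean with overlapping groups.

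Both MICAL-like genes had lower means in CUS mice, without a call. Micall1 (ENSMUSG00000033039, chr15:79108898-79136900), which acts on tubular recycling endosomes, was at 17.6, 17.8, 21.0 and 17.1 CPM in control mice and at 16.1, 15.5, 15.1, 16.0 and 15.6 CPM in CUS mice. All 5 CUS mice lay below all 4 control mice, as they did for 4.7% of the genes tested. The log2 fold change was -0.23 (SE 0.07, FDR 0.0837, edgeR quasi-likelihood test). DESeq2 gave FDR 0.0474. Micall2 (ENSMUSG00000036718, chr5:139706696-139736336), an effector of RAB13 and RAB8, had only 37 to 77 reads per mouse and a log2 fold change of -0.35 (SE 0.20, FDR 0.326, edgeR).

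Srf and its cofactors did not differ detectably. Srf (ENSMUSG00000015605, chr17:46546839-46556162) was at 13.1, 15.5, 14.4 and 12.8 CPM in control mice and at 13.0, 12.5, 12.9, 13.9 and 15.9 CPM in CUS mice, a log2 fold change of -0.03 (SE 0.09, FDR 0.866, edgeR). Mkl1 (ENSMUSG00000042292, chr15:81012281-81190757) had equal means, 156 ± 23.3 CPM (n = 4) and 156 ± 4.87 CPM (n = 5). Its sign turned under several alternatives, so no direction is given. Mkl2 (ENSMUSG00000009569, chr16:13256481-13417529) was at 371 to 424 CPM in control and 400.2 to 420 CPM in CUS mice, a log2 fold change of 0.05 (SE 0.05, FDR 0.602, edgeR). The per-mouse plot of the 8 genes shows the tight CUS values of Mkl1 and Mkl2 inside the wider control range.

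**Figure D1:**
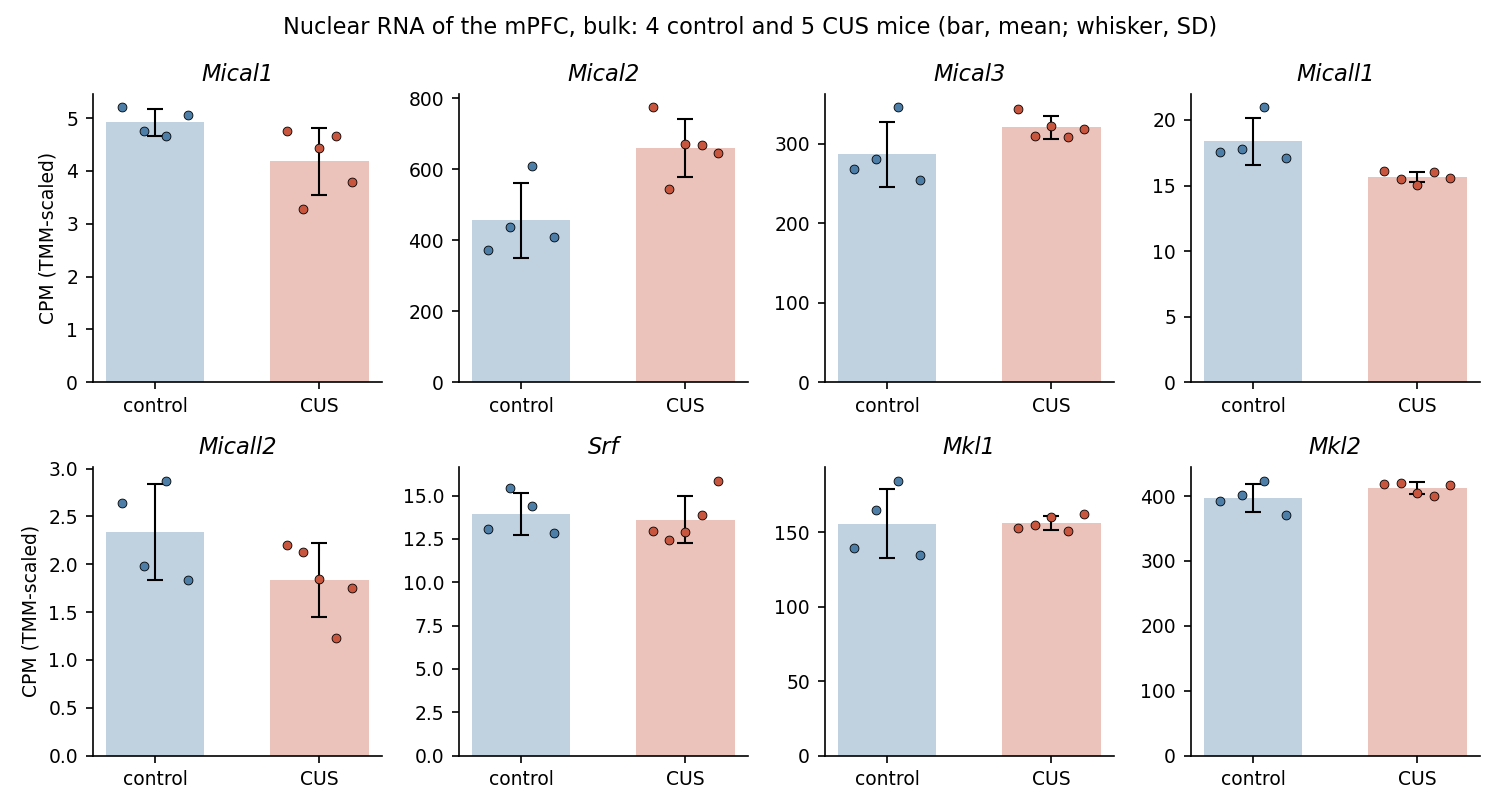
Bulk nuclear RNA of the mPFC, 1 panel per gene: the vertical axis is TMM-scaled CPM from 0, each point is a mouse, bars are means of 4 control or 5 CUS mice and whiskers are SD. Mical2 means are 457 and 660 CPM with 1 control mouse inside the CUS range, and the Micall1 groups do not overlap.

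The genes next to Mical2 were examined as well. Of 9 genes within 300 kb of Mical2, 6 passed the filter on low counts, and 3 were called, all higher in CUS: Mical2, Micalcl and Gm49324. Of all genes tested, 1.16% were called higher. Mical2 set the window and Gm49324 overlaps both others, so these are not 3 separate calls. Micalcl (ENSMUSG00000030771, chr7:112368308-112413106), which encodes a protein like the C-terminal part of MICALs, starts 13113 bases past the annotated end of Mical2 on the same strand. It was at 7.54, 8.62, 10.4 and 7.76 CPM in control mice and at 15.3, 13.8, 15.3, 16.8 and 14.2 CPM in CUS mice. The groups did not overlap, as was so in this direction for 4.06% of genes. Its log2 fold change was 0.82 (SE 0.10, FDR 0.00391, edgeR), and it stayed called in all 14 alternatives run.

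Gm49324 (ENSMUSG00000111187, chr7:112349394-112412987) overlaps the last 5801 bases of the Mical2 span and almost all of Micalcl on the same strand. It was at 32.4 to 53.6 CPM in control and 58.8 to 80.3 CPM in CUS mice, a log2 fold change of 0.77 (SE 0.14, FDR 0.0159, edgeR). FDR was 0.0567 without control replicate 2 and 0.0526 and 0.0504 without CUS replicates 4 and 5. How reads on shared bases were divided among these genes is not given in the sources used here. Gm49324 and Micalcl share 44680 bases, so the values of both are uncertain and not separate from each other. The value of Gm49324 is also not separate from that of Mical2. Mical2 and Micalcl share no bases with each other. The GENCODE M21 annotation joins Mical2 and Micalcl into 1 gene, whereas RefSeq keeps them apart. With their reads added, a fit chosen after the values were seen, the log2 fold change was 0.54 (SE 0.13, FDR 0.0454, edgeR).

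The genes beyond did not pass the test. Dkk3 (ENSMUSG00000030772, minus strand), which encodes a secreted Dickkopf family protein, ends 66798 bases before Mical2. It averaged 141 ± 27.4 CPM (n = 4) in control and 187 ± 20.6 CPM (n = 5) in CUS mice, a log2 fold change of 0.40 (SE 0.12, FDR 0.0748, edgeR), and it was called in 5 of 14 alternatives, with FDR 0.0242 in the likelihood ratio test, 0.0218 with DESeq2, 0.0438 without the filter, 0.0431 without CUS replicate 2 and 0.00643 without control replicate 3. Parva, the nearest tested gene downstream and the gene of the focal adhesion protein alpha-parvin, had a log2 fold change of -0.04 (SE 0.10, FDR 0.863, edgeR). Usp47, a deubiquitinase gene, was at -0.02 (SE 0.05, FDR 0.827, edgeR). The differences were thus bounded on both sides by tested genes with log2 fold changes near 0.

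**Figure D2:**
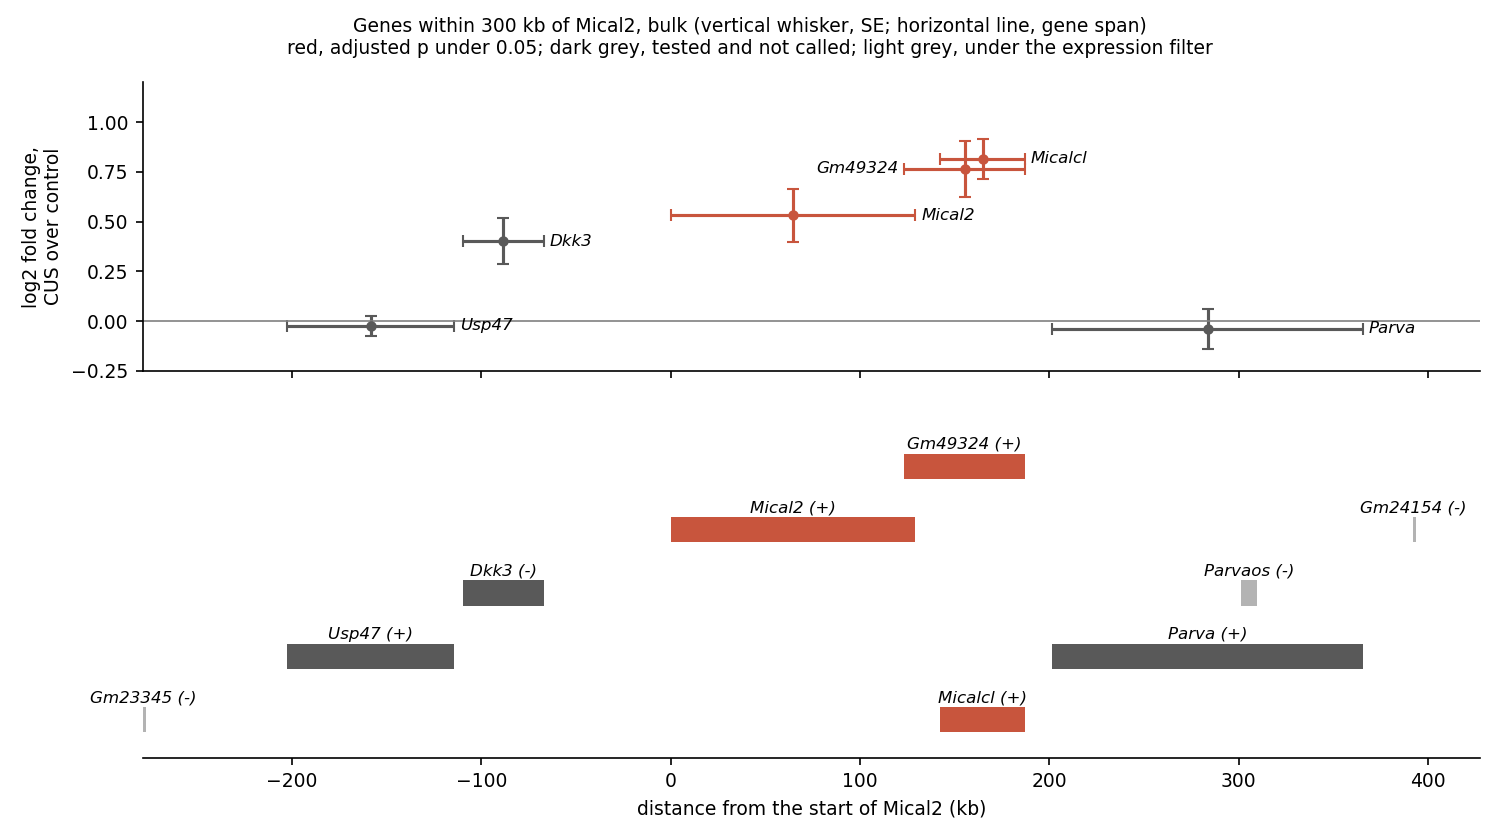
The Mical2 locus in bulk, with distance from the start of Mical2 in kb on the horizontal axis: the upper panel gives log2 fold changes of CUS over control with SE as vertical whiskers and gene spans as horizontal lines, and the lower panel gives the gene spans and strands. Red marks FDR under 0.05, dark grey tested genes without a call and light grey genes under the filter, and Mical2, Gm49324 and Micalcl stand at 0.53, 0.77 and 0.82 between Usp47 and Parva near 0.

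Markers of some cell classes also moved in bulk, where fewer cells of a type and less RNA per cell cannot be told apart. Excitatory neuron markers had a median log2 fold change of 0.24, with 1 of 5 called higher and summed levels of 1300 to 1916 CPM in control and 1683 to 1790 CPM in CUS mice. The layer lists had medians of 0.04 for Ex_L2/3, -0.10 for Ex_L4, 0.06 for Ex_L5, 0.17 for Ex_L5/6 and -0.08 for Ex_L6. Microglia markers had a median of 0.05 and endothelial and mural markers one of 0.07. No gene of these lists was called. Astrocyte markers had a median of -0.35 with 3 of 8 called lower, and oligodendrocyte markers a median of -0.54 with 1 of 8 called lower. The summed level of the oligodendrocyte markers was 302 to 711 CPM in control and 318 to 401 CPM in CUS mice. Oligodendrocyte precursor markers summed to 494 to 600 CPM in control mice and to 386 to 461 CPM in CUS mice, with 2 of 5 called lower. Striatal markers summed to 653 to 1053 CPM in control mice and to 1141 to 1379 CPM in CUS mice, although 8 of the 9 had log2 fold changes below 0 and the median was -0.88. The exception was Pde10a, a phosphodiesterase gene, which rose by 0.61 on the log2 scale (FDR 0.0161, edgeR). Every marker list except choroid plexus had all its genes above the filter, and no listed gene was without reads in all mice. Of the 5 choroid plexus markers 2 were tested, with a median of -1.43 and 1 called lower. The 2 summed to 1.90 to 5.75 CPM in control and 1.69 to 2.13 CPM in CUS mice. Inhibitory neuron markers had a median of -0.26 with none of 5 called and all 5 below 0, and markers of newly formed oligodendrocytes a median of -0.43 with 2 of 5 called lower. The part of these shifts in the values of Mical2, Micall1 and Mical1 was not tested.

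In single nuclei, Mical2 had a higher mean in CUS mice in all 13 excitatory classes in which it passed the filter on low UMI sums. Clusters were called X-like where enough known markers led them, and otherwise kept a number and their leading gene. Clusters 14, 18 and 19 also had enough markers of a class but shared fewer than 2 leading ones with its largest cluster, so they were not joined to it. Cluster 14 was led by the striatal markers Adora2a, Drd2 and Penk, and striatal neurons-like nuclei by Drd1 and Tac1. In Ex_L2/3-like nuclei (3691 nuclei), Mical2 was at 157, 153, 159 and 191 CPM in control mice and at 324, 324, 260 and 297 CPM in CUS mice, a log2 fold change of 0.88 (SE 0.12). In Ex_L4-like nuclei (3108) it was at 170, 166, 168 and 204 CPM and at 419, 345, 282 and 339 CPM, a log2 fold change of 0.98 (SE 0.13). The lowest CUS mouse thus exceeded the highest control mouse in each of these classes, as for 2.46% and 2.15% of the genes tested there.

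In the deeper layers the values were as follows, with no test between layers. The log2 fold change of Mical2 was 0.70 (SE 0.17) in Ex_L5/6-like, 0.64 (SE 0.14) in Ex_L6-like and 0.59 (SE 0.16) in Ex_L5-like nuclei. Ex_L5-like nuclei had the highest level, 247 ± 11.2 CPM (n = 4) in control and 372 ± 72.9 CPM (n = 4) in CUS mice. Over the excitatory classes the log2 fold change ran from 0.22 (SE 0.30) in the Tshz2 cluster 18 to 0.98, and the groups did not overlap in 7 of the 13, among them the Cpne7 cluster 10 and the Ndst4 cluster 3. Of all gene and class pairs tested in excitatory classes, 1.73% had such higher groups. Mical2 was chosen for this difference, so nothing is read from these counts.

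Inhibitory nuclei, here the 4 Inh_ classes together, had a higher mean in CUS mice. Clusters 11, 14 and 24 and striatal neurons-like nuclei had more Gad1 and Gad2 than Slc17a7 but were not counted among them. Mical2 summed over them was at 104, 97.1, 120 and 125 CPM in control and at 157, 145, 134 and 141 CPM in CUS mice, a log2 fold change of 0.38 (SE 0.14). Summed over excitatory nuclei it was at 165, 155, 166 and 179 CPM in control and at 323, 269, 233 and 273 CPM in CUS mice, a log2 fold change of 0.73 (SE 0.10). Without CUS replicate 1, the mouse with the most Mical2, the excitatory value was 0.64. The excitatory log2 fold change exceeded the inhibitory one by 0.35 (SE 0.12), which is given as a description. In that fit 0% of 5276 genes had FDR under 0.2. Within the inhibitory classes the log2 fold change was 0.46 (SE 0.19) in Inh_Pv-like, 0.46 (SE 0.24) in Inh_Sst-like, 0.25 (SE 0.35) in Inh_Ndnf-like and -0.43 (SE 0.42) in Inh_Vip-like nuclei, and the groups overlapped in each, although they did not in the sum (1.28% of genes there were higher without overlap, and 2.31% in the excitatory sum). The last rests on 58 UMIs.

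Among glia, astrocytes-like nuclei had no higher mean in CUS mice, and the other classes had few Mical2 UMIs. Free RNA in droplets can add to these levels: Slc17a7, an excitatory neuron gene, was at 44.5 CPM in astrocytes-like and 139 CPM in microglia-like nuclei beside 208 CPM in Ex_L2/3-like nuclei, with median depths of 1211, 1608 and 2463 UMIs, and its part in the glial levels of Mical2 was not tested. In astrocytes-like nuclei Mical2 was at 154 ± 23.5 CPM (n = 4) in control and 146 ± 22.1 CPM (n = 4) in CUS mice, a log2 fold change of -0.06 (SE 0.24). Microglia-like nuclei had only 57 UMIs of Mical2, with control mice from 0 to 140 CPM and CUS mice from 79.0 to 212 CPM. In the oligodendrocytes-like, oligodendrocyte precursors-like and striatal neurons-like classes and in clusters 14 and 24 Mical2 fell under the filter. Control means in microglia-like, oligodendrocytes-like and precursors-like nuclei were 52.8, 22.9 and 15.3 CPM, below the means over 8 mice of 103, 35.2 and 32.5 CPM. Over all 21 classes that passed the filter, the log2 fold change ran from -0.43 to 1.01. The highest value was outside the excitatory, inhibitory and astrocytes-like classes, and so in a class with few Mical2 UMIs. The log2 fold change was above 0 in 19 of the 21. Of all gene and class pairs tested, 50.3% had a higher mean CPM in CUS mice, and 1.59% were higher without overlap. Mical2 was chosen for this difference and the classes share the same mice, so nothing is read from this count.

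**Figure D3:**
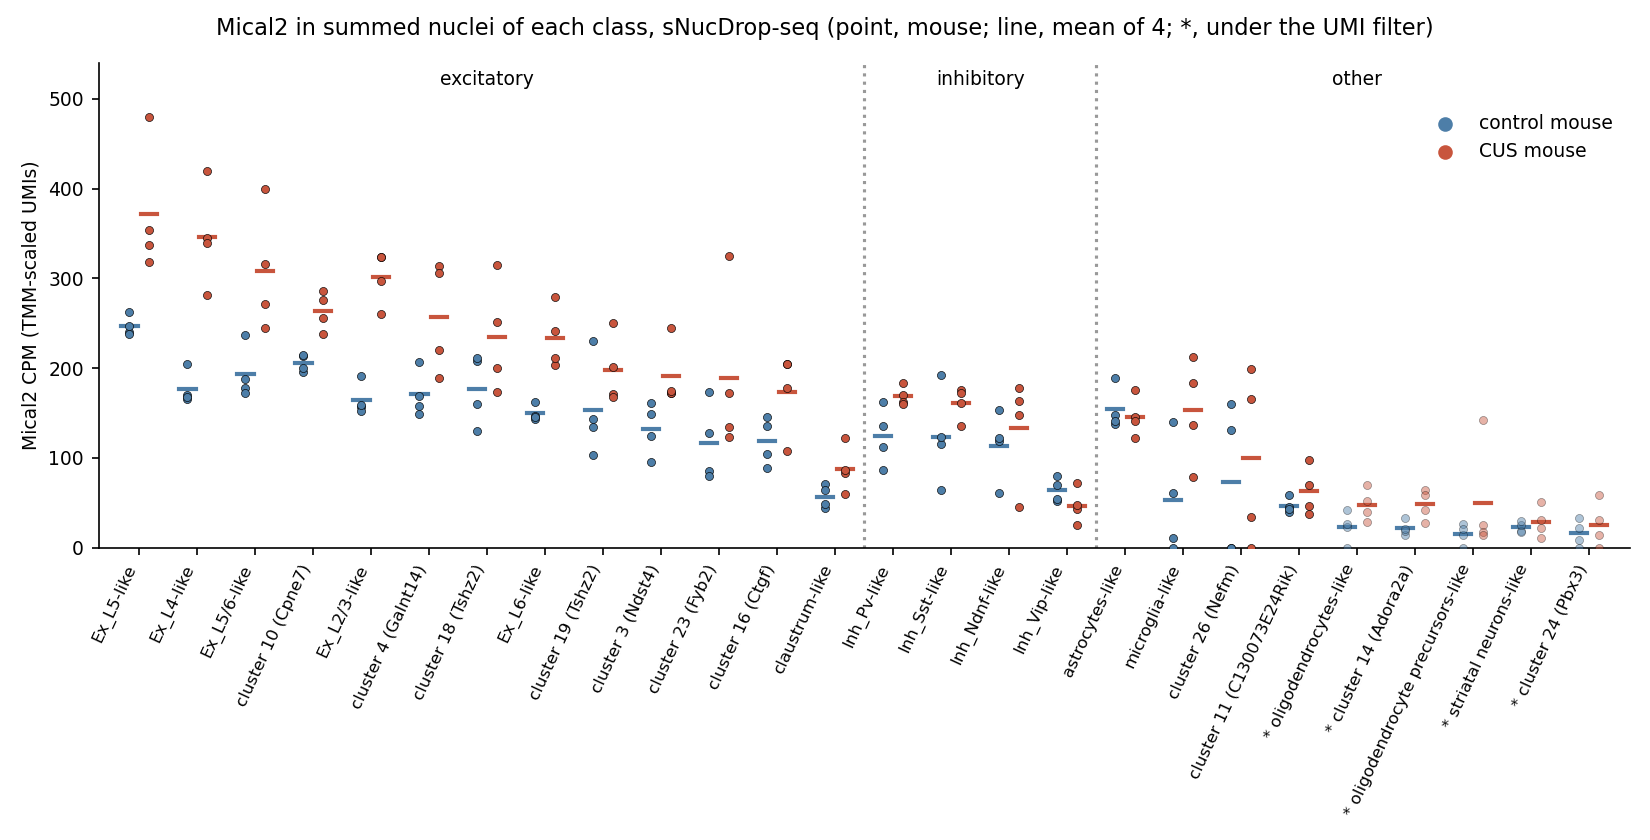
Mical2 in summed nuclei of 26 classes: the vertical axis is TMM-scaled CPM, each point is a mouse (blue control, red CUS), short lines are means of 4 mice, and classes marked with an asterisk fell under the filter. In Ex_L2/3-like and Ex_L4-like nuclei the 4 CUS mice stand above the 4 control mice, whereas the astrocytes-like points mix.

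Each member had its own order of levels over the classes, as the heat map of class means shows. Mical2 was highest in Ex_L5-like nuclei (310 ± 82.6 CPM over 8 mice), followed by Ex_L4-like (262 ± 98.5 CPM) and Ex_L5/6-like (251 ± 77.8 CPM), and lowest in the Pbx3 cluster 24 (20.8 ± 19.8 CPM) and in striatal neurons-like nuclei (25.6 ± 12.1 CPM). In the 4 control mice alone the order was Ex_L5-like (247 ± 11.2 CPM), cluster 10 (206 ± 9.52 CPM), Ex_L5/6-like (194 ± 29.6 CPM), cluster 18 (177 ± 39.0 CPM) and Ex_L4-like (177 ± 18.3 CPM), so the place of Ex_L4-like nuclei over 8 mice rests on the CUS mice. No neighbours in the order over 8 mice differed by more than the larger SD. Over 26 classes, the genes with the pattern most like that of Mical2 among 5017 genes were Rras2 (Pearson r 0.815 of log2(CPM + 1)), Myrip (0.805) and Gtdc1 (0.797). These correlations are across classes of the same 8 mice and libraries and are given as a description.

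Mical3 was highest in the Fyb2 cluster 23 (331 ± 52.2 CPM, n = 8) and in Ex_L4-like nuclei (294 ± 14.7 CPM) and lowest in astrocytes-like nuclei (68.0 ± 31.9 CPM). Micall1 was by far highest in oligodendrocytes-like nuclei, at 280 ± 82.2 CPM (n = 8), where the next class, Inh_Ndnf-like, had 65.1 ± 28.3 CPM. That step was the only one between neighbours larger than the larger SD for any of the 8 genes. Mical1 was highest in astrocytes-like nuclei (40.3 ± 29.5 CPM) and oligodendrocyte precursors-like nuclei (19.7 ± 14.6 CPM), but it had only 235 UMIs in all nuclei and 0 CPM in some classes. Micall2 had 30 UMIs in all, too few for an order.

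The SRF cofactor genes had other orders. Mkl2 was at 224 to 358 CPM over the 13 excitatory classes and at 74.0 to 137 CPM over the 4 inhibitory classes. Its highest levels were in the Adora2a cluster 14 (404 ± 87.9 CPM, n = 8), the Pbx3 cluster 24 (384 ± 77.1 CPM) and striatal neurons-like nuclei (373 ± 42.1 CPM), which are 3 of the 5 classes in which Mical2 fell under the filter. These 3 and the C130073E24Rik cluster 11 (257 ± 36.7 CPM, n = 8) had more Gad1 and Gad2 than Slc17a7 but were counted in neither kind. Mkl1 was highest in the same cluster 14, with 96.0 ± 27.4 CPM, had 84.6 ± 18.3 CPM in striatal neurons-like nuclei, and was lowest in the Nefm cluster 26 (23.9 ± 35.5 CPM). Srf was low everywhere, from 6.86 to 29.2 CPM over the classes with 909 UMIs in all, and no order can be read. The clusters were made from these same nuclei, so these levels carry no test.

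**Figure D4:**
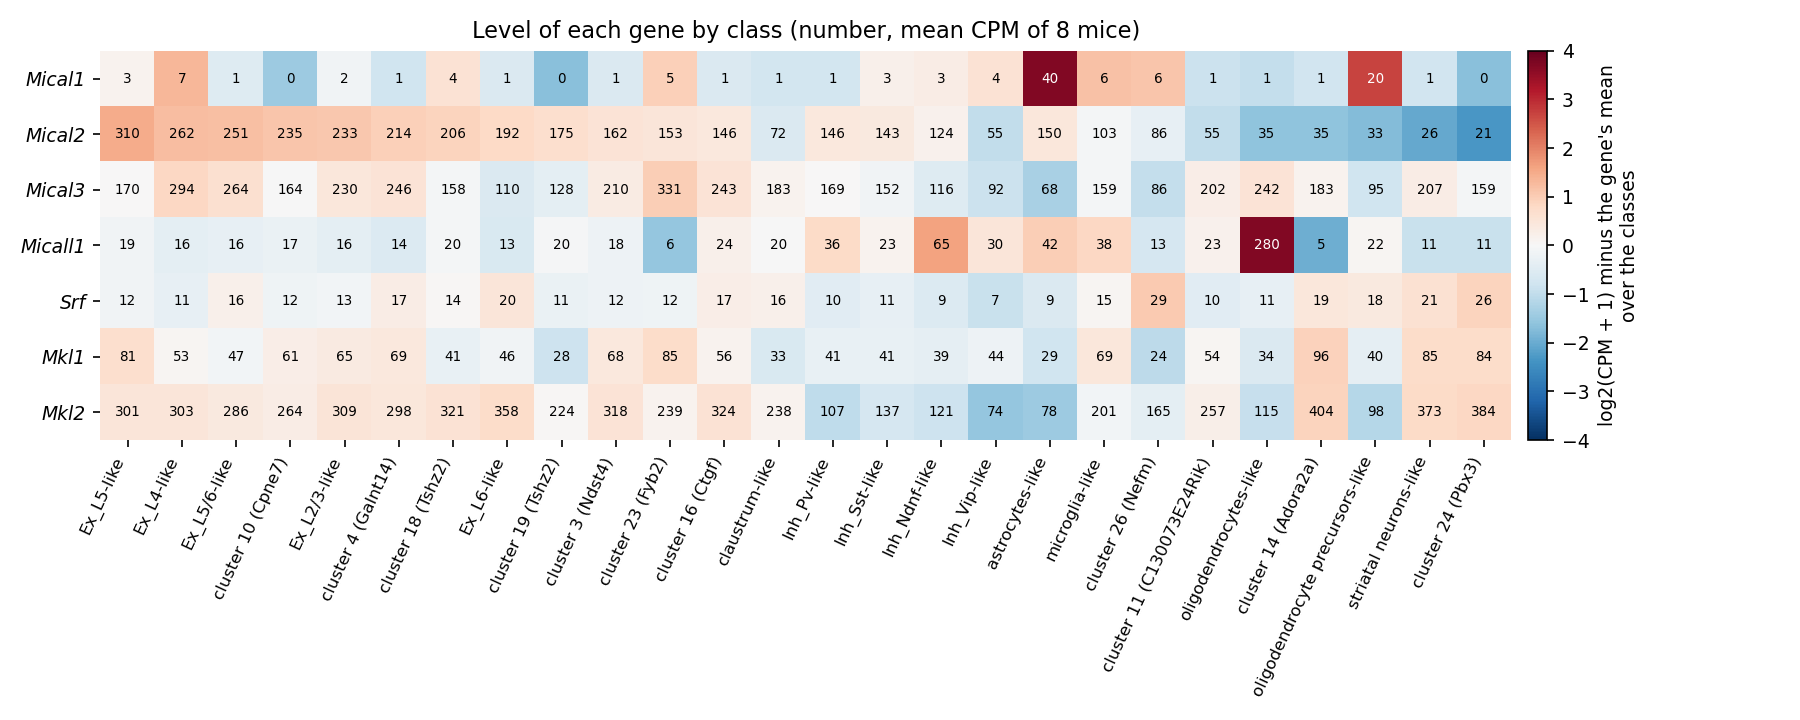
Level of 7 members over 26 classes, with Micall2 left out for its 30 UMIs: numbers are mean CPM of 8 mice, and colour is log2(CPM + 1) minus the gene's own mean over the classes, so colours compare classes within a gene and not genes. Micall1 stands out at 280 CPM in oligodendrocytes-like nuclei, and Mkl2 runs from 74 CPM in Inh_Vip-like to 404 CPM in cluster 14.

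Among the other members that passed the filter in a class, no pair of a gene and a class was called between CUS and control nuclei. The edgeR quasi-likelihood test covered 71 pairs of a member and a class, from Mical3, Mkl1, Mkl2 and, in 2 classes, Micall1. Mical1, Micall2 and Srf passed the filter in no class. These fits hold no batch term, unlike those of the study, so a pair without a call is not evidence of no change. None had FDR under 0.2, the threshold of the study, which 0.11% of all gene and class pairs passed. At an unadjusted p under 0.05 there was 1 pair, Micall1 in oligodendrocytes-like nuclei. There Micall1 was at 290, 207, 230 and 146 CPM in control mice and at 298, 315, 398 and 358 CPM in CUS mice, a log2 fold change of 0.68 (SE 0.26, FDR 0.998, edgeR). All CUS mice lay above all control mice, as for 1.43% of the genes in this class and in the opposite order from bulk, and the class gave 28 to 200 nuclei per mouse. DESeq2 and the likelihood ratio test also called no pair.

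Mical3, Mkl1 and Mkl2 passed the filter in the sum over all nuclei and were not called there. Summed over all nuclei, Mical3 was at 200, 199, 201 and 198 CPM in control mice and at 203, 231, 206 and 188 CPM in CUS mice, a log2 fold change of 0.05 (SE 0.08, FDR 0.836, edgeR). Mkl1 was at -0.02 (SE 0.11, FDR 0.960, edgeR) and Mkl2 at 0.02 (SE 0.08, FDR 0.943, edgeR). The difference between the CUS responses of excitatory and inhibitory nuclei was -0.01 (SE 0.11) for Mical3, -0.09 (SE 0.19) for Mkl1 and 0.08 (SE 0.12) for Mkl2 on the log2 scale, none called, as was no gene (0% of 5276). In all nuclei 0.0199% of genes were called. Mical1, Micall1, Micall2 and Srf fell under the filter in this sum. Srf was at 11.5, 10.4, 12.0 and 13.4 CPM in control and at 19.9, 12.6, 12.8 and 16.5 CPM in CUS mice, and without the filter its log2 fold change was 0.38 (SE 0.17, FDR 0.632, edgeR).

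Mical1 was called in all nuclei only where the filter on low UMI sums was dropped. It was at 1.64, 2.65, 1.49 and 2.81 CPM in control mice and at 10.1, 3.68, 3.54 and 3.33 CPM in CUS mice, from 74 and 161 UMIs. All CUS mice lay above all control mice, as for 2.05% of the genes that passed the filter, among which Mical1 is not. The share for genes with so few UMIs is not given. The log2 fold change was 1.25 (SE 0.29, FDR 0.00813, edgeR, 0.847% of 36464 genes called). Without CUS replicate 1, a fit added after the values were seen, it was 0.70 (SE 0.32, FDR 0.898, edgeR). That mouse gave 78 of the UMIs, 36 of them in its 279 astrocytes-like nuclei, where the other mice had 89 to 175 such nuclei. In bulk, Mical1 had the opposite sign.

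Genes around the family were examined in bulk in 4 lists, drawn up with earlier results of these data known. Of their 60 tested genes, 7 were called, against 3.29% of all genes. Nothing is read from this share or from the count of genes below 0. Among SRF and MRTF targets of the actin cytoskeleton, 2 of 22 were called, both lower, and the median log2 fold change was -0.10 beside 0.01 over all genes. Cyr61, which encodes a secreted matricellular protein, had 4.37 ± 1.02 CPM in the 4 control mice against 1.29 ± 0.196 CPM in the 5 CUS mice and fell by 1.77 on the log2 scale (SE 0.18, FDR 0.00107, edgeR). Pdlim5, a PDZ and LIM domain adaptor of actin, had 58.8 ± 9.57 CPM (n = 4) against 43.5 ± 3.16 CPM (n = 5) and fell by 0.43 on the log2 scale (SE 0.09, FDR 0.0304, edgeR). Of the 21 genes of this list with a RefSeq window, 6 had a CArG box: Actc1, Actg1, Cnn2, Fhl2, Myl9 and Vcl. Neither called gene was among them, and Actc1 was under the filter and not tested. Fhl2 had a log2 fold change of 0.24 (FDR 0.0616, edgeR) with all CUS mice above all control mice, as for 4.06% of all genes, and is named after its values were seen.

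Among immediate early targets of SRF and ternary complex factors, 1 of 12 was called and the median was -0.16. Fos had 8.27 ± 1.55 CPM (n = 4) against 4.00 ± 0.65 CPM (n = 5) and fell by 1.05 on the log2 scale (SE 0.15, FDR 0.00566, edgeR).

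Among semaphorin and plexin partners and the methionine sulfoxide reductases, 3 of 14 were called with a median of -0.01. Plxna4, a plexin receptor gene, had 657 ± 84.7 CPM (n = 4) against 871 ± 33.0 CPM (n = 5) and rose by 0.41 on the log2 scale (SE 0.08, FDR 0.0178, edgeR). The semaphorin co-receptor genes went opposite ways: Nrp1 rose by 0.28 (SE 0.06, FDR 0.0368, edgeR) and Nrp2 fell by 0.49 (SE 0.09, FDR 0.0159, edgeR) on the log2 scale. The summed level of the list was 2087 to 2551 CPM in control and 2616 to 2649 CPM in CUS mice. Plxna4 and Msra (368 ± 71.9 against 482 ± 17.1 CPM) weigh most in this difference, and 7 of the 14 genes had log2 fold changes below 0. No methionine sulfoxide reductase gene was called. Their log2 fold changes were -0.10 for Msrb1, -0.06 for Msrb3, 0.22 for Msrb2 and 0.39 for Msra (FDR 0.0687, edgeR), and the groups did not overlap for Msra, as for 4.06% of all genes in that direction. Among Rab and endocytic partners, Rab10, a vesicle transport GTPase gene, was the 1 call of 12 and fell by 0.22 (SE 0.05, FDR 0.027, edgeR). Of the 60 genes, 43 had a log2 fold change below 0, beside 48.7% of all genes tested. The number called was 2 without control replicate 2 or without CUS replicate 4, 3 without CUS replicate 5 or with the replicate block, 12 with DESeq2 and 13 without control replicate 3.

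**Figure D5:**
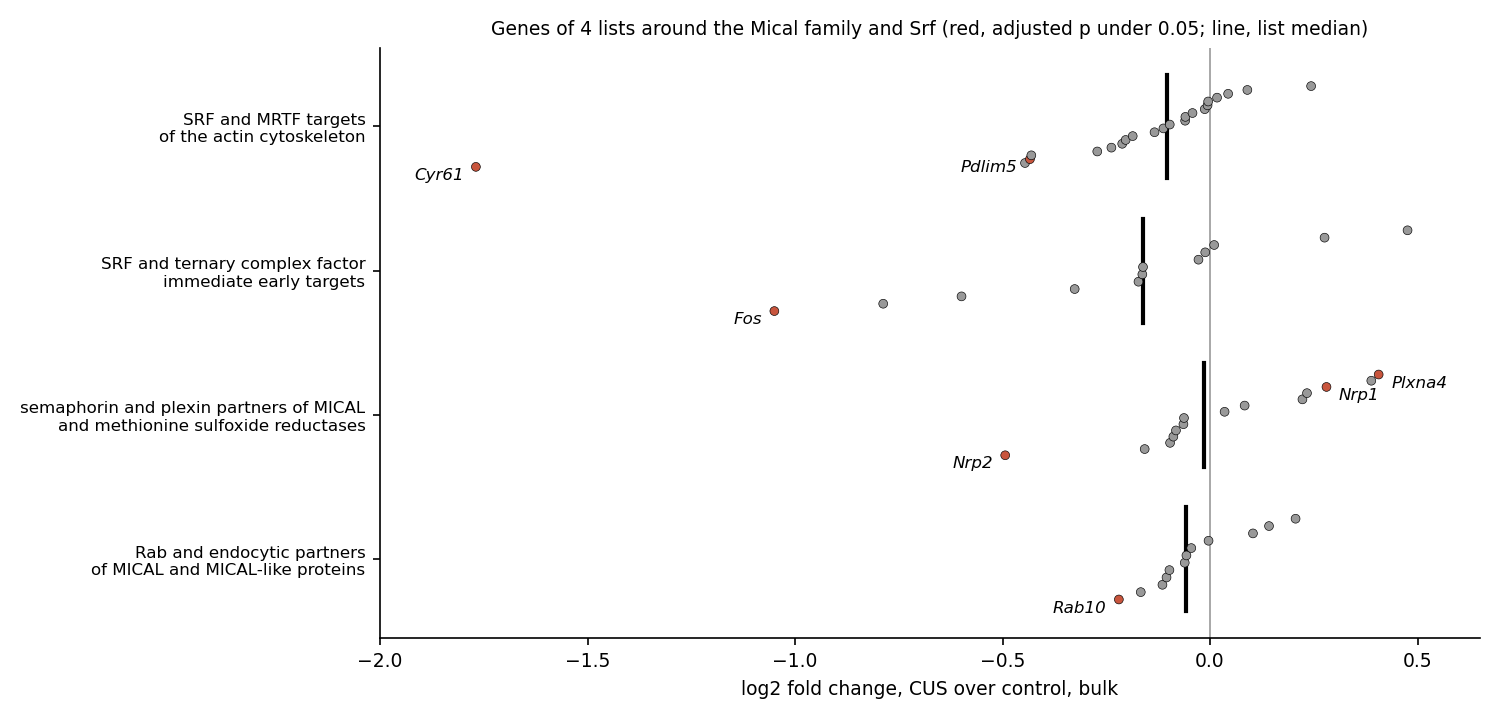
Bulk log2 fold changes of CUS over control for 60 genes in 4 lists: each point is a gene, red points have FDR under 0.05 and are named, and black lines are list medians. The medians lie between -0.16 and -0.01, with Cyr61 at -1.77 and Fos at -1.05 farthest from 0.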

How the data were processed

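Nuclear RNA was sequenced in bulk from the mPFC of 9 mice and by sNucDrop-seq from the neocortex of 8. Per the labels and the Methods, the authors aligned reads to mm10 with STAR. The bulk counts as deposited are whole uniquely mapped reads per gene from a stranded kit, and the counts of the nuclei are UMIs from exonic and intronic reads, for 5000 barcodes a mouse and unfiltered. Removal of PCR copies in bulk is not described, so depth is taken to give counting error only. Mice of a group differed by 2.88 to 24.4 times that error in chi-square per degree of freedom.

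Bulk genes passing filterByExpr were tested with edgeR 4.0.16 (TMM, quasi-likelihood, FDR 0.05). Nuclei were kept at 600 to 5000 genes, mitochondrial UMIs under 5% and a Scrublet score up to 0.2 (scanpy 1.11.5, expected rate 0.1, 15.2% removed) and clustered in Seurat 5.3.0 (2000 variable genes, 50 components, 20 neighbours, resolution 1). Clusters with 3 markers and 2 among their 10 leading genes were named; the rule that Slc17a7 exceed Gad1 plus Gad2 by 2 times in excitatory clusters, and that clusters share leading markers to be joined, was set after the clusters, but not their conditions, had been seen. Of 37 clusters, 26 classes had over 200 nuclei. UMIs were summed per mouse and class, and genes whose sum exceeded 10% of the nuclei were tested with edgeR at FDR 0.2. SE is the log2 fold change divided by the root of F. Fits were tested on simulated data.

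Members and lists were chosen with earlier results of these data known. The named genes are the members, called list genes (up to 3 a direction by p), called and nearest genes within 300 kb of Mical2, and the 3 genes with the pattern most like its own. Alternatives were the likelihood ratio test, DESeq2 1.42.0, no TMM, no filter, a replicate block, leaving out each mouse, resolutions 0.6 and 1.5 and no doublet filter. Promoters are RefSeq windows of GRCm38.p6. Nothing says that same-numbered mice were paired. Some genes and lists are not reported here.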

Additional observations from a re-analysis of the deposited data

Results flagged for a closer look

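Among 52 groups of mice compared for the values above, 2 had 1 mouse far from the rest, where chance would give about 1 in 20. Mical1 in all nuclei was at 10.1 CPM in CUS replicate 1, while the other CUS mice were at 3.33 to 3.68 CPM. Mical2 in Ex_L4-like nuclei was at 204 CPM in control replicate 4, while the other control mice were at 166 to 170 CPM. The latter mouse still lay below every CUS mouse.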

How the results depend on the processing

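Same-numbered mice had correlations of 0.03 to 0.23 in bulk, where differently numbered mice ran from -0.24 to 0.16. In nuclei same-numbered mice had correlations of -0.45 to 0.40, where differently numbered mice reached -0.59 and 0.53. No source says that the numbers are pairs, so they were not taken as pairs. The bulk correlations do not decide this. The replicate block in bulk left out CUS replicate 5, which has no control mouse of its number, and called 0 members and 3 list genes. On the same mice without a block the counts were also 0 and 3, against 1 and 7 on all bulk mice. DESeq2 called 2 members and 12 list genes, and the likelihood ratio test 11 list genes. Leaving out each bulk mouse gave 0 to 2 members and 2 to 13 list genes. Over all genes, calls were 606 in the reported fit, 1330 with the likelihood ratio test, 1402 with DESeq2, 815 without TMM, 780 without the filter, 233 with the block, 133 without control replicate 2, 148 and 140 without CUS replicates 4 and 5, 352 and 316 without CUS replicates 1 and 3, and 1508 without control replicate 3, so the share of all genes called also moves with 1 mouse. The log2 fold change of Mical2 stayed between 0.44 and 0.70 in all 14 bulk alternatives, with FDR from 0.00198 to 0.130. In nuclei, no pair of a class and a member other than Mical2 was called in any of the 16 alternatives. In all nuclei 1 member was called without the filter, and 0 to 1 when each mouse was also left out. The Mical2 log2 fold change in excitatory nuclei ran from 0.64 to 0.80. Some values near 0 changed sign, and the cause was not tested. In bulk, Srf ran from -0.094 to 0.022 with 1 mouse left out (above 0 without control replicate 2), and Mkl1 was at -0.00027 with DESeq2, -0.019 without TMM, -0.049 and -0.052 without control replicates 1 and 4, and -0.0064 and -0.0096 without CUS replicates 3 and 5, the highest such value being 0.088. In all nuclei Mical3 was at -0.0055 without CUS replicate 2 and at most 0.098, Mkl1 at 0.035, 0.0078, 0.038 and 0.0012 without control replicates 2 and 3 and CUS replicates 1 and 2 and at least -0.090, and Mkl2 at -0.00079 and -0.017 without control replicate 1 and CUS replicate 2 and at most 0.062, each with 1 mouse left out. Depth limits Mical1, Micall2 and Srf in nuclei.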

Other observations

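The bulk library of control replicate 3 stood highest among the control mice for several genes at once. It had the most Mical2 (610 CPM), Mical3 (346 CPM), Micall1 (21.0 CPM), Mkl1 (185 CPM), Mkl2 (424 CPM) and Dkk3 (180 CPM) of the 4 control mice. Without it, 2 of the 8 members were called, Mical2 and Mical3, and 13 list genes, where 1508 of all 18625 genes tested in that fit were called.

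The transcripts downstream of Mical2 were almost unread in nuclei. Summed over all nuclei, Micalcl had 44 UMIs and Gm49324 185 UMIs, where Mical2 had 12272, and Micalcl was at 0 to 0.86 CPM in control and 0.53 to 0.99 CPM in CUS mice. The bulk rise of these genes could not be followed by class at this depth. Dkk3 had a log2 fold change of 0.15 in all nuclei (FDR 0.687, edgeR).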
